A study of Mus musculus with 4 samples.

Results

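The S100 proteins and annexins described here are 10 genes of nerve macrophages, 5 that encode S100 proteins (S100a1, S100a4, S100a6, S100a10 and S100a11) and 5 that encode annexins (Anxa1, Anxa2, Anxa3, Anxa4 and Anxa5). They were taken by symbol from a table of 24028 mouse genes, and each of the 10 was found once. The libraries come from macrophages sorted from the sciatic nerve of female mice 3 days after nerve injury. The mice carried 1 reporter allele at each of the loci Cx3cr1 and Ccr2 (Cx3cr1-GFP+/- and Ccr2-RFP+/-), so the young and aged cells share both reporters, and the labels describe the cells as CCR2+ and Cx3cr1+. Young mice were 3 months and aged mice 15 months old, with 7 to 8 mice per time point, as the submitters state it, pooled into 2 libraries, so that n = 2 libraries per age throughout. Uninjured nerve was not analysed here, so the comparison is between the ages alone.

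S100 proteins are small calcium-binding proteins of the EF-hand type that mostly act as dimers inside the cell, where calcium opens a surface that grips a partner protein. Annexins bind the acidic phospholipids of membranes when calcium rises. They take part in membrane repair, in vesicle traffic and in the link between membranes and actin. The families work together: S100A10, which has lost the ability to bind calcium, is joined to annexin A2 in a heterotetramer at the cell surface that can hold plasminogen, and S100A11 binds annexin A1. In macrophages and monocytes these proteins are known for roles in migration, in the uptake of dying cells and in the resolution of inflammation.

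Values are FPKM, the fragments of a gene divided by its length in kilobases and by the library's reads. Rounded library totals ran from 8613000 to 11489000 reads, and between 310 and 42328 reads at the least stood behind each value of a member, for which exact Poisson 95% intervals, which cover counting error only, reached on average at most 11.3% to a side, in S100a11, and as little as 0.954%, in Anxa2. The 8 macrophage markers summed to 9184 to 13982 FPKM, of which Lyz2 alone gave 7491 to 12267 FPKM. Csf1r, the receptor for macrophage growth factor, was 178 to 278 FPKM, and Cx3cr1 was 16.1 to 19.8 FPKM. Some single markers of other cells lay above Cx3cr1 in each library. These were Gsn of the fibroblast list (80.5 to 92.6 FPKM), Pmp22 of the Schwann cell list (27.9 to 51.6 FPKM) and Csf3r of the neutrophil list (24.3 to 29.7 FPKM). Further ones did so in some libraries, such as Col3a1 at 58.9 FPKM in young replicate 2. Markers of other cells nonetheless had lower sums than the 8 macrophage markers. Their sums were 67.4 to 87.3 FPKM for 9 Schwann cell markers, 121 to 294 FPKM for 8 fibroblast markers, 44.8 to 57.3 FPKM for 9 of 10 neutrophil markers found in the table, 10.5 to 24.9 FPKM for 7 endothelial markers and 8.84 to 107 FPKM for 5 of 7 T and NK cell markers found, of which Cd3g alone gave 97.8 FPKM in aged replicate 2. Replicates share no stated origin beyond the pool, so the p-values below measure the spread between pooled libraries, which may be technical.

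All 10 genes were expressed in both ages. Anxa2 led the group at 1092 to 1502 FPKM and ranked between 13 and 26 among all genes of a library. Anxa1 (334 to 609 FPKM), Anxa5 (370.1 to 483 FPKM), S100a4 (206 to 507 FPKM), S100a10 (193 to 463 FPKM) and S100a1 (130.3 to 523 FPKM) followed, with neighbours in that order whose ranges over the 4 libraries overlapped. S100a6 lay at 82.4 to 128 FPKM and S100a11 at 63.0 to 116 FPKM. These ranges overlapped too, although S100a6 was the higher of this pair in 4 of 4 libraries. Anxa3 (47.5 to 62.6 FPKM) and Anxa4 (25.4 to 33.6 FPKM) were the lowest, and each lay apart from its upper neighbour. The steps from Anxa2 to Anxa1 and from S100a1 to S100a6 were also free of overlap.

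**Figure D1:**
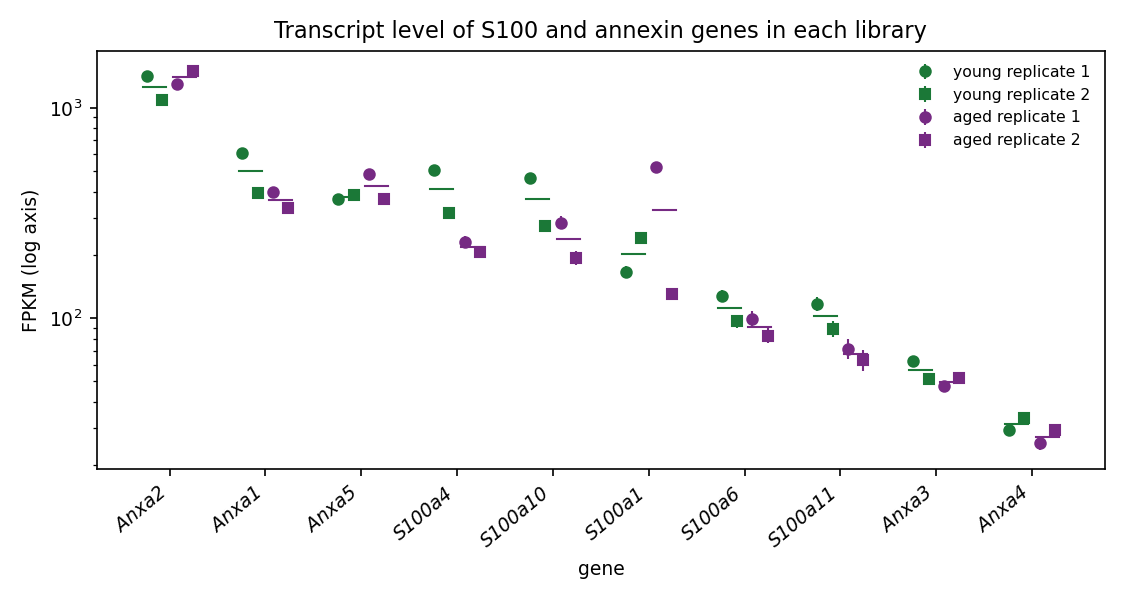
FPKM (log axis) of each gene in each library, ordered by the mean over 4 libraries. Circles are replicate 1 and squares replicate 2 of the young (green) and aged (purple) mice, thin bars are exact Poisson 95% intervals of the reads, which cover counting error only, and horizontal lines are the means per age. Anxa2 lies highest at 1092 to 1502 FPKM, and the widest spread is that of S100a1, from 130.3 to 523 FPKM.

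The comparison of aged with young cells asks whether these genes are used differently by macrophages of the older injured nerve. Using log2(FPKM + 1), limma called 0 of the 10 genes at an adjusted p below 0.05, and the background was 0% of the 11656 genes tested, those with a mean of at least 1 FPKM. At an unadjusted p below 0.05 there were 2 of the 10, S100a4 and S100a11, beside 6.63% of all genes tested (773 genes). Both had lower values in the aged libraries, as did 4.87% of all genes tested at that p. By their mean log2 values, 7 of the 10 genes were on the lower side with age and 3 on the higher, where 59.5% of all genes tested were lower. The ages did not overlap in 3 genes, S100a4, S100a11 and Anxa4, beside 38% of all genes tested. Other scalings gave 2 genes with the median ratio (35.4% of all genes), 5 with quantile scaling (39.2%) and 6 with the values as deposited (43.4%). In the 3 genes the aged values were the lower ones, as in 26.2% of all genes tested, and in 0 members were they the higher ones, as in 11.8%. The median difference of the 10 genes was -0.25, beside -0.09 for all genes tested, and without young replicate 1 these medians were -0.10 and -0.18. For the S100 genes alone it was -0.59 and for the annexins -0.18, and without young replicate 1 -0.23 and -0.04. The S100 median was -0.33 without aged replicate 2, and that of the annexins was -0.10 without aged replicate 1 and -0.11 without young replicate 2. With 2 libraries against 2, an exact two-sided permutation test of a single value cannot give a p below 0.333.

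S100A4, also known as fibroblast-specific protein and expressed by macrophages as well, binds the heavy chain of non-muscle myosin IIA and is tied to cell motility. S100a4 was 507 and 315 FPKM with young mice (replicates 1 and 2) and 230.1 and 206 FPKM with aged mice. Both aged libraries were low and close together, both young libraries were higher, and the ages did not overlap. The means were 411 ± 136 FPKM for young mice and 218 ± 17.1 FPKM for aged mice (SD, n = 2), a 1.89-fold higher mean in young. The log2 difference, aged minus young, was -0.87 (SE 0.27, 95% interval -1.53 to -0.21), with an unadjusted p of 0.0175 and an adjusted p of 0.740 in limma's test over all genes. It exceeded the gap of 0.68 between the young libraries and that of 0.16 between the aged libraries. It was -0.53 without young replicate 1 and -1.51 with the values as deposited. In bulk RNA a smaller share of S100a4-expressing cells and less transcript per cell cannot be told apart.

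S100A11 binds annexin A1 and takes part in plasma membrane repair. S100a11 was 116 and 88.8 FPKM with young mice and 71.4 and 63.0 FPKM with aged mice. As with S100a4, young replicate 1 was highest, aged replicate 2 lowest, and the ages did not overlap. The mean was 1.53-fold higher in young cells. The log2 difference was -0.59 (SE 0.22, 95% interval -1.14 to -0.05; unadjusted p 0.0375, adjusted p 0.740 by limma). The gaps between replicates were smaller, 0.39 for young and 0.18 for aged mice. The difference was -0.40 without young replicate 1 and -0.99 with the values as deposited. The values of both genes are uncertain in part. Of the 50-base stretches of S100a11 in GENCODE M21, 41.1% also occur in Gm12854, and of those of S100a4, 47.4% occur in Gm42674, whose exons overlap 51.7% of the exon bases of S100a4 on the same strand. Neither of these genes was in the deposited table.

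Position is a feature the S100 genes share. In GENCODE M21 (GRCm38) all 5 lie on chromosome 3, S100a1 at 90511034 to 90514392 on the minus strand and S100a4 at 90603771 to 90606045, S100a6 at 90612882 to 90624181, S100a11 at 93520488 to 93526287 and S100a10 at 93555080 to 93564643 on the plus strand. By RefSeq spans, S100a4 and S100a6 are 6.85 kb apart and S100a11 and S100a10 are 28.8 kb apart, with 2.91 Mb between the pairs. Of the annexins, Anxa5 is on chromosome 3 too (36448923 to 36475894), whereas Anxa1 is on chromosome 19 (20373428 to 20390944), Anxa2 on chromosome 9 (69453620 to 69491795), Anxa3 on chromosome 5 (96793339 to 96845966) and Anxa4 on chromosome 6 (86736840 to 86793584).

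The promoters of S100a4 and S100a11, the genes with an unadjusted p below 0.05, are shown next to that of Anxa2, the most abundant member. They are RefSeq sequences of GRCm38.p6 from 250 bases before to 50 bases after the start site, 5′ to 3′ on the plus strand, which holds all 3 genes, at chr3:90603520-90603819, chr3:93520246-93520545 and chr9:69453433-69453732. Capitals mark every match on either strand to TATAAA, the TATA box, to TGANTCA, the core site of AP-1 factors, or to GGGCGG, the GC box of Sp1 factors. No match overlaps another.
S100a4: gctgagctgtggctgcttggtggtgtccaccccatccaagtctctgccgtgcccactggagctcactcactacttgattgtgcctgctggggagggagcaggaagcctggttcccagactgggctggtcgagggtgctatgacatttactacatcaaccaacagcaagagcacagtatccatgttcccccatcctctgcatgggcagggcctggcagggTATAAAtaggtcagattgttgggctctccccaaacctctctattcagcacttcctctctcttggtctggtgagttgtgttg
S100a11: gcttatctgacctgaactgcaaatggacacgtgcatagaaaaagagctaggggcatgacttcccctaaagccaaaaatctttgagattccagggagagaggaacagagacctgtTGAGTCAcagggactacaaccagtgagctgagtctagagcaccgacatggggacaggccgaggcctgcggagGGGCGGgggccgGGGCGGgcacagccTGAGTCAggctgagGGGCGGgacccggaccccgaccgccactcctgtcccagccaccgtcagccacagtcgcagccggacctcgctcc
Anxa2: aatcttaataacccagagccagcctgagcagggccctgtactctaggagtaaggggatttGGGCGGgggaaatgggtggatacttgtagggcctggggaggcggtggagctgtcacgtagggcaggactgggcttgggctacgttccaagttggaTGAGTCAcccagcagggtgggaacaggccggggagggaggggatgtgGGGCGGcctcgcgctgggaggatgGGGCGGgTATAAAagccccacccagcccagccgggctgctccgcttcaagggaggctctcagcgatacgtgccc
The promoter of S100a4 matches TATAAA at position -31 from the start and has no match to the other motifs. That of S100a11 has no match to TATAAA, 2 to TGANTCA and 3 to GGGCGG, and that of Anxa2 has 1 match to TATAAA, 1 to TGANTCA and 3 to GGGCGG. The table of promoters holds 9 sequences for 8 of the 10 genes. Of these, 3 hold TATAAA (S100a4, Anxa1 and Anxa2), 2 hold TGANTCA (S100a11 and Anxa2) and 3 hold GGGCGG (S100a11, Anxa2 and Anxa4). Over all 32851 promoters of the same length, the shares are 13.6%, 7.8% and 35.7%. S100a4 and S100a11 have none of these motifs in common in this window.

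S100A10 is the light chain that keeps annexin A2 at the plasma membrane and holds plasminogen there. S100a10 was 463 and 276 FPKM with young mice and 285 and 193 FPKM with aged mice. Young replicate 1 stood high, aged replicate 2 low, and the second young library lay just under the first aged one, so the ages overlapped. The means were 369 ± 132 and 239 ± 64.5 FPKM, with a log2 difference of -0.60 (95% interval -1.39 to 0.18; adjusted p 0.755 by limma). The gap of 0.75 within the young pair was larger than this difference, which was -0.23 without young replicate 1, -0.98 without young replicate 2 and -0.33 without aged replicate 2.

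S100A6, calcyclin, is linked to proliferation and binds the protein CACYBP. S100a6 was 128 and 96.8 FPKM with young mice and 99.6 and 82.4 FPKM with aged mice, again with young replicate 1 highest, aged replicate 2 lowest and overlap between the ages. Its log2 difference was -0.29 (95% interval -0.85 to 0.27; adjusted p 0.796 by limma), and it was -0.09 without young replicate 1, -0.49 without young replicate 2 and -0.16 without aged replicate 2. The level of S100a4 relative to S100a6 was 3.97 and 3.26 in the young and 2.31 and 2.50 in the aged libraries. S100a4 was thus the higher of both genes in each library, by a smaller factor in the aged ones.

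S100A1 is best known from heart muscle, where it acts on calcium cycling. S100a1 had another order of libraries than the other S100 genes: it was 166 and 239 FPKM with young mice, then 523 FPKM in the first aged library and 130.3 FPKM in the second. The aged pair thus held both the highest and the lowest value, 4.01-fold apart. The log2 difference was 0.39 (95% interval -1.12 to 1.89; adjusted p 0.906 by limma), and it was -0.61 without aged replicate 1, 1.39 without aged replicate 2 and 0.13 without young replicate 1. The top library was 2.18-fold above the next one. Among 548 genes with a mean of at least 100 FPKM, 7 (1.28%) had a library at least 2-fold above the next. It was aged replicate 1 in 3 of these and aged replicate 2 in 3. S100a1 itself is among the 7. S100a1 took 43.3% of the summed S100 level in aged replicate 1 and 12.05% to 23.6% in the other libraries. By RefSeq, the spans of S100a1 and S100a13, on opposite strands, overlap by 98 bases. S100a13 was 6.72 to 16.2 FPKM.

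**Figure D2:**
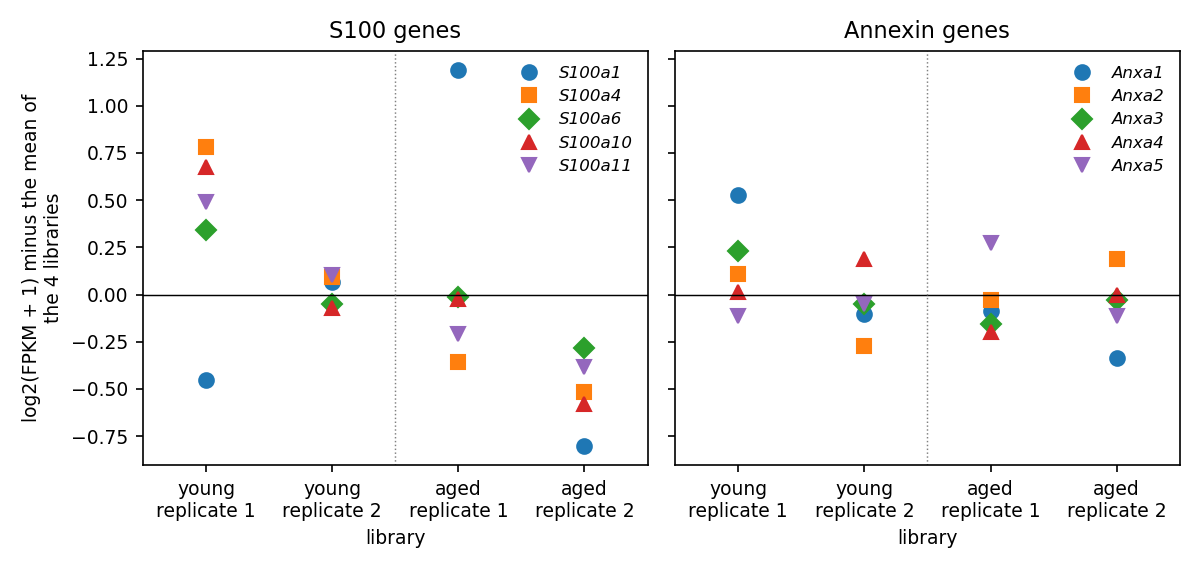
Deviation of each library from the gene's own mean over 4 libraries, on the scale of log2(FPKM + 1), for the S100 genes (left) and the annexins (right); each symbol is 1 gene and the dotted line separates the ages. S100a4, S100a6, S100a10 and S100a11 are highest in young replicate 1 and lowest in aged replicate 2, S100a1 is highest in aged replicate 1, and the annexins other than Anxa1 stay closer to 0.

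Anxa2, Anxa3, Anxa4 and Anxa5 spanned at most 1.38-fold between their lowest and highest library and Anxa1 1.83-fold, where the S100 genes spanned 1.55-fold to 4.01-fold. Annexin A1, induced by glucocorticoids, is a ligand of formyl peptide receptors that limits neutrophil entry and favours resolution. Anxa1 was 609 and 393 FPKM with young mice and 397 and 334 FPKM with aged mice. Like S100a4, S100a6, S100a10 and S100a11, it was highest in young replicate 1 and lowest in aged replicate 2. As in S100a6 and S100a10, young replicate 2 and aged replicate 1 lay almost level and the ages overlapped. The log2 difference was -0.43 (95% interval -1.07 to 0.22; adjusted p 0.761 by limma), within the gap of 0.63 of the young pair. It was -0.11 without young replicate 1 and -0.74 without young replicate 2. The level of Anxa1 relative to its partner gene S100a11 was 5.23 and 4.43 in the young and 5.56 and 5.30 in the aged libraries.

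Annexin A2 binds actin and membrane phospholipids and forms the heavy chain of the complex with S100A10. Anxa2 was 1424 and 1092 FPKM with young mice and 1293 and 1502 FPKM with aged mice, with the highest value in aged replicate 2 and the lowest in young replicate 2. The log2 difference was 0.16 (95% interval -0.39 to 0.71; adjusted p 0.892 by limma), but -0.080 with the values as deposited and -0.031 without young replicate 2. Anxa2 made up 55.8% to 65.7% of the summed level of the 5 annexins.

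Within each library, the level of Anxa2 relative to S100a10 does not depend on the library's total. This ratio was 3.08 and 3.96 in the young and 4.54 and 7.76 in the aged libraries. Both aged values were above both young values, and aged replicate 2 stood well above the other libraries. On the log2 scale the mean ratio was 1.80 in young and 2.57 in aged cells, a difference of 0.77. It exceeded the gap of 0.36 between the young libraries but not that of 0.77 between the aged libraries. The exact two-sided permutation p was 0.333, the smallest that 2 libraries per age allow. The difference was 0.40 with the values as deposited and 0.38 without aged replicate 2. This ratio was chosen after the values were seen.

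**Figure D3:**
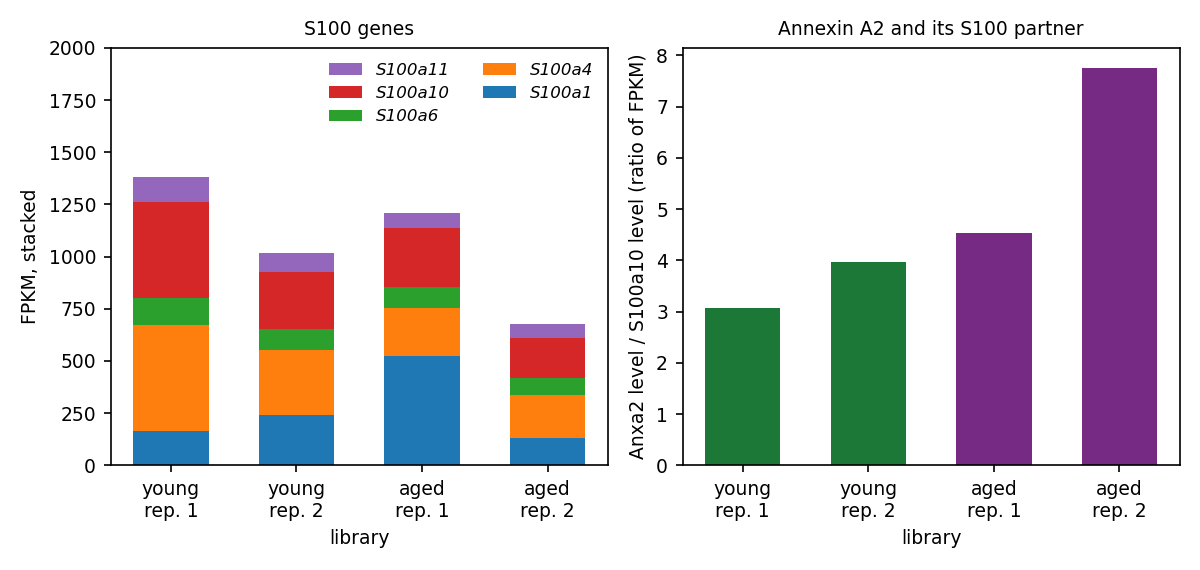
Left, FPKM of the 5 S100 genes stacked in each library; right, level of Anxa2 over that of S100a10 in each library (ratio of FPKM, young green, aged purple). The S100 sum is 1380.1 and 1016 FPKM with young mice and 1209 and 675 FPKM with aged mice, with S100a1 as the broad base of the bar of aged replicate 1, and the ratio is 3.08 and 3.96 in young and 4.54 and 7.76 in aged libraries.

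Annexin A5 binds phosphatidylserine on dying cells, and its labelled form is the common stain for them. Anxa5 was 370.1 and 387 FPKM with young mice and 483 and 370.2 FPKM with aged mice. Aged replicate 1 was higher, and the other 3 values lay close together. The log2 difference was 0.16 (95% interval -0.36 to 0.68; adjusted p 0.885 by limma), but -0.27 with the values as deposited and -0.032 without aged replicate 1.

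Anxa3 and Anxa4 encode membrane-binding annexins, of which annexin A4 is best known from secretory epithelia. Anxa3 was 62.6 and 51.3 FPKM with young mice and 47.5 and 52.1 FPKM with aged mice, with overlap between the ages. Its log2 difference was -0.18 (95% interval -0.70 to 0.34; adjusted p 0.864 by limma), and -0.04 without young replicate 1. Anxa4 was 29.6 and 33.6 FPKM with young mice and 25.4 and 29.2 FPKM with aged mice. Its ages did not overlap, but the nearest values were 1.01-fold apart, and the log2 difference of -0.20 (95% interval -0.74 to 0.33) had an adjusted p of 0.854 by limma and was -0.10 without aged replicate 1.

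**Figure D4:**
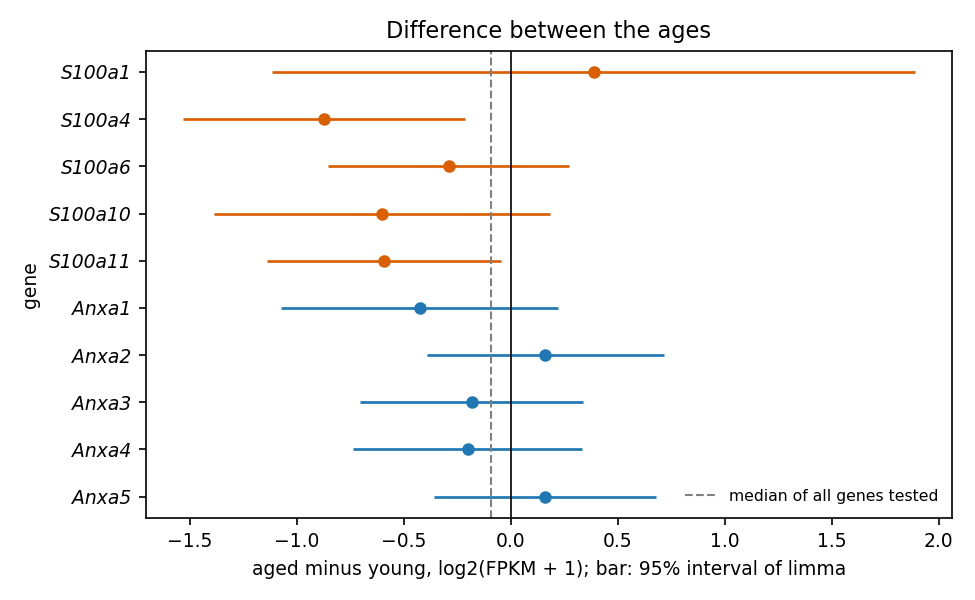
Difference in log2(FPKM + 1), aged minus young, for each gene, as limma's estimate (point) with its 95% interval (bar), S100 genes in orange and annexins in blue. The intervals of S100a4 (-1.53 to -0.21) and S100a11 (-1.14 to -0.05) lie below 0, before adjustment for the 11656 genes tested, and those of the other genes span 0; the dashed line is the median of all genes tested, -0.09.

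Several genes shared the highest or the lowest library. Young replicate 1 was the highest library in 6 of the 10 genes, beside 19.8% of all genes tested, and aged replicate 2 was the lowest in 6, beside 35.4%. In 3 genes (30.0%), S100a4, S100a11 and Anxa4, the difference between the ages exceeded the gaps within both ages, beside 25.7% of all genes tested. The fibroblast markers summed to 121 and 294 FPKM with young mice and 175 and 154 FPKM with aged mice, of which Gsn, also expressed by other cells, gave 80.5 to 92.6 FPKM. Without Gsn the sums were 40.9 and 201 FPKM with young and 91.4 and 65.3 FPKM with aged mice. The neutrophil markers summed to 44.8 and 46.1 FPKM with young mice and 47.1 and 57.3 FPKM with aged mice. Csf3r gave 24.3 to 29.7 FPKM of each sum. Camp gave 9.36 FPKM in aged replicate 2 and 0.291 to 0.620 FPKM in the other libraries. Retnlg was 0.139 and 1.04 FPKM with young mice and was listed at 0 in both aged libraries. Cxcr2 went the other way, at 0.143 and 0.397 FPKM with young and 1.297 and 1.415 FPKM with aged mice. Both genes had a mean below 1 FPKM and were not tested. Of the 5 neutrophil markers tested, 4 were higher and 1 lower in aged by their means. The endothelial markers summed to 24.9 and 20.6 FPKM with young and 10.5 and 13.1 FPKM with aged mice, but Cldn5 alone gave 16.9 FPKM in young replicate 1. Without Cldn5 the sums were 8.01 and 20.1 FPKM with young and 9.06 and 12.02 FPKM with aged mice, and the ages overlapped. The part of other cells in the differences of S100a4 and S100a11 was not tested. Of the 8 macrophage markers, 6 were lower and 2 higher in aged by their means, with a median log2 difference of -0.18 and 0 called by limma. In 3 the aged values were all lower, beside 26.2% of all genes tested, and in 1, Csf1r, all higher, beside 11.8%. Csf1r was 178 and 256 FPKM with young and 278 and 262 FPKM with aged mice (log2 difference 0.34, adjusted p 0.774 by limma). The lowest unadjusted p of these markers was that of Itgam, the integrin CD11b, which was 107 and 106 FPKM with young and 68.0 and 60.5 FPKM with aged mice (log2 difference -0.72, adjusted p 0.740 by limma).

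Other members of both families were mostly low. Of 11 further S100 genes, 5 had a mean of at least 1 FPKM and 0 passed limma's test, with 4 of the 5 lower in aged by their means. S100a8 and S100a9, the calprotectin subunits abundant in neutrophils, were 5.03 to 7.15 and 1.34 to 6.48 FPKM, far below the S100 genes above. S100a9 was 6.48 and 3.55 FPKM with young mice and 2.22 and 1.34 FPKM with aged mice (log2 difference -1.09, adjusted p 0.740 by limma). S100a13, which helps to release growth factors without a signal peptide, was 16.2 and 15.1 FPKM with young mice and 10.2 and 6.72 FPKM with aged mice (-0.84, adjusted p 0.740 by limma). In both genes, 2 of the 5 tested, the aged values were all lower than the young ones, beside 26.2% of all genes tested. S100a16 was 2.84 to 8.59 FPKM, and S100b, the Schwann cell marker, was 1.33 to 3.08 FPKM.

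Of 7 further annexins, 5 had a mean of at least 1 FPKM and 0 passed, with 4 of the 5 lower by their means. Anxa7 was 72.9 to 97.2 FPKM, Anxa6 23.2 to 40.5 FPKM, Anxa11 13.1 to 15.5 FPKM and Anxa9 8.05 to 17.0 FPKM, all with overlap between the ages. Anxa8 was 1.71 and 1.73 FPKM with young mice and 0.680 and 0.480 FPKM with aged mice, without overlap (log2 difference -0.79, adjusted p 0.755 by limma).

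Genes that work with these proteins were also read, and limma called 0 of them. Of 13 receptors and binding partners, 11 were tested, 6 of them higher and 5 lower in aged by their means, with a median of 0.04. Lcp1, the actin bundler L-plastin, was 405 and 480 FPKM with young mice and 603 and 641 FPKM with aged mice, without overlap (log2 difference 0.50, unadjusted p 0.0450, adjusted p 0.740 by limma). The tropomyosin genes Tpm3 (336 to 369 FPKM) and Tpm1 (57.9 to 99.6 FPKM) and the membrane-actin linker Ezr (54.8 to 83.2 FPKM) had adjusted p of 0.927, 0.864 and 0.907 by limma. Of the formyl peptide receptors that bind annexin A1, Fpr2 was 18.3 to 19.8 FPKM in all 4 libraries. Fpr1 was 12.2 and 9.27 FPKM with young mice and 9.04 and 4.39 FPKM with aged mice.

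The genes of plasminogen activation, the process that the complex of annexin A2 and S100A10 serves, had a median of -0.34 over 9 of 10 members tested, 6 of them lower and 3 higher by their means. Plaur, the urokinase receptor, was 46.8 to 52.4 FPKM with overlap between the ages. Plgrkt, another plasminogen receptor, was 41.1 and 26.0 FPKM with young mice and 25.7 and 25.5 FPKM with aged mice. Plau, urokinase, was 14.8 to 28.04 FPKM, highest in young replicate 1, and Enpp1 was 10.6 to 19.7 FPKM.

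Membrane repair genes had a median of -0.17 over 12 of 14 tested, 9 lower and 3 higher by their means, and in 6 the aged values were all lower than the young ones, beside 26.2% of all genes tested. Capns1, the small subunit of calpains, calcium-activated proteases that act at membrane wounds, was 221 and 198 FPKM with young mice and 136 and 149.6 FPKM with aged mice (log2 difference -0.55, unadjusted p 0.0285, adjusted p 0.740 by limma). Chmp4b, a filament-forming subunit of the ESCRT membrane-cutting machinery, was 190 and 169 FPKM with young mice and 131 and 158 FPKM with aged mice. Capn2, a large calpain subunit, was 78.3 and 74.6 against 57.4 and 73.2 FPKM, and the ferlin gene Myof was 49.9 and 61.8 against 42.4 and 44.3 FPKM. In all of these the ages did not overlap.

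The eicosanoid pathway, whose phospholipase step annexin A1 was first known to restrain, had a median of -0.02 over 11 of 12 genes tested, 5 higher and 6 lower by their means. Alox5ap, which presents arachidonic acid to 5-lipoxygenase, was 406 to 519 FPKM, and Pla2g7, which degrades platelet-activating factor, 406 to 619 FPKM. Ptgs2, cyclooxygenase, was 126 and 74.9 FPKM with young mice and 81.8 and 81.6 FPKM with aged mice. The ages overlapped in each of these genes, with adjusted p of 0.987, 0.971 and 0.863 by limma.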

How the data were processed

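The authors deposited 1 table of FPKM for 24028 genes in 4 libraries, with Entrez IDs and symbols. Per the labels' protocols, cDNA was made from oligo-dT primers and then amplified (multiple displacement amplification), which can copy transcripts unevenly. The submitters' processing notes name bcl2fastq, BWA 0.7.12, DESeq2 and mm10 (GRCm38), with no role given. How reads were counted is not stated in the sources used here.

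The deposited FPKM had been divided by 12 read totals in a cycle over genes sorted by Entrez ID as text, shifted by 4 places per column. Each value was multiplied by its divisor, then divided by the total of the library it belongs to. As a check, among genes of at most 0.3 FPKM with a ratio between libraries of at most 20, the restored values stood in a ratio of small whole numbers (denominator up to 12, tolerance 1e-06) in 2142 of 2150 genes, and the deposited values scaled by their own totals in 0 of 2147. Reads are the smallest whole numbers, within 0.02 reads, that fit all 4 libraries at some length up to 12000 bases, so true reads can be a multiple.

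The test was limma 3.58.1 in R 4.3.3 (empirical Bayes, intensity trend) on log2(FPKM + 1), two-sided, over genes with a mean of at least 1 FPKM, with Benjamini-Hochberg adjustment and a threshold of 0.05. The fit was tested on simulated data. Levels and intervals were computed in Python 3.11.15. Groups and replicate numbers come from the sample titles, columns from the sample numbers in the labels. All 10 members are named, with the further S100 and annexin genes of at least 1 FPKM. Of each other list except the marker lists, the 4 genes with the highest mean are named. Fpr1, Fpr2, Csf1r, Lyz2, Cx3cr1, Itgam, Cd3g, Retnlg, Cxcr2, Camp, Csf3r, Pmp22 and Col3a1 were chosen after values were seen. So were the ratio of Anxa2 to S100a10, the marker sums without Gsn or Cldn5, and the shared order of Pla2g15 and S100a1. In the ratios of gene pairs given above the ages did not overlap, whereas in the others computed they overlapped. S100a10 over S100a11 was 3.98 and 3.10 in the young and 3.99 and 3.07 in the aged libraries. Anxa2 over Anxa5 was 3.85 and 2.82 in the young and 2.68 and 4.06 in the aged libraries. The members and the 12 other lists were chosen with earlier results of these data known. Shared sequence was counted in GENCODE M21 transcripts.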

Additional observations from a re-analysis of the deposited data

How the results depend on the processing

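limma called 0 of the 10 genes in all 12 alternatives (lowest adjusted p 0.407 without aged replicate 1, highest over the members' lowest values 0.960 without young replicate 1), with 381 to 1437 genes at an unadjusted p below 0.05 beside 773. The log2 differences of S100a4 (-1.51 to -0.53), S100a6 (-0.49 to -0.09), S100a10 (-0.98 to -0.23), S100a11 (-0.99 to -0.40), Anxa1 (-0.74 to -0.11), Anxa3 (-0.42 to -0.04) and Anxa4 (-0.37 to -0.09) were negative in 12 of 12 alternatives. These are not 12 independent checks. No filter, a filter at a mean of 5 FPKM, no intensity trend and the replicate block cannot change a gene's difference, only its p-value. The values as deposited shifted the median of all genes by -0.22, and there Anxa2 was -0.080 and Anxa5 -0.27. Without a single library, Anxa2 ranged from -0.031 (without young replicate 2) to 0.35, Anxa5 from -0.032 and S100a1 from -0.61 (both without aged replicate 1) to 0.35 and 1.39. The median of the 10 genes ranged from -0.49 to -0.10 without a single library. Without young replicate 1 it was -0.10, beside -0.18 for all genes, so the lower median of the 10 genes relative to all genes rests on that library. The count of genes without overlap between the ages was 3 (38% of all genes), with 6 as deposited (43.4%), 5 with quantile scaling (39.2%) and 2 with the median ratio (35.4%), and 4 to 8 without a single library, where 65.5% to 74.4% of all genes do not overlap because fewer libraries are compared. With the median ratio, 49.2% of all genes were lower in aged, beside 59.5%.

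The replicate numbers are not stated to pair the libraries, and the deviations of same-numbered libraries had a correlation of 0.00 over 11656 genes. With replicate number as a block, 0 of the 10 genes were called, with 906 genes at an unadjusted p below 0.05. In 16 of 20 replicate pairs the Poisson 95% intervals of the reads did not overlap. They overlapped in the aged pairs of S100a4, S100a11 and Anxa3 and in the young pair of Anxa5, where the gap between replicates is not separable from counting error at this depth.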

Other observations

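Pla2g15, a lysosomal phospholipase of the eicosanoid list, had the same order of libraries as S100a1. An order of 4 libraries holds few points, and the share of all genes with this order was not computed. It was 64.2 and 115 FPKM with young mice, 499.97 FPKM in the first aged library and 39.5 FPKM in the second, and its adjusted p was 0.901 by limma.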
